A study of Mus musculus with 20 samples.

Results

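In the experiment described here, brown adipose tissue RNA of the Fob3b mouse line was set against that of the F line on the second of 2 designs of spotted cDNA array. It consists of 2 of the 20 arrays of the series, chosen as the only arrays of this design whose channel labels name brown adipose tissue. Array 8072 carried Fob3b pool 1 in red and F pool 1 in green, and array 8071 carried the same pools with the dyes exchanged. The F line is a line selected for obesity, and the Fob3b line shares its genetic background but carries lean-line alleles at an obesity locus of that name on chromosome 15, so both groups hold the F background. Each pool is a mixture of RNA from 1 line; the number of animals in it, and their age, sex, diet and housing temperature, are not stated in the sources used here. The free-text description of both arrays names the F line on either side, whereas the channel labels name Fob3b on 1 side. The channel labels were followed.

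Brown adipose tissue burns fatty acids in mitochondria to make heat, through the uncoupling protein UCP1 in the inner mitochondrial membrane. It takes up glucose, converts part of it to fatty acids in the cytosol, and oxidises the rest through pyruvate dehydrogenase and the citrate cycle. Fatty acid synthesis consumes NADPH, which malic enzyme, cytosolic isocitrate dehydrogenase and the pentose phosphate pathway supply. The locus on chromosome 15 was mapped for body fat, so the question put to the arrays is which transcripts differ in level between the lines in this tissue.

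The deposited values were logarithms of dye ratios, taken to be log2. The dye in the numerator is not stated. The median of the 7680 clones was subtracted on either array, each clone was given the mean of its 2 spots, and the sign of the array with Fob3b in green was turned. The positive side thus stands for more RNA in Fob3b if the ratio was red over green, and for more RNA in F if it was green over red; every sign in the text would turn together. There was 1 pool pair, so 2 arrays and 4 spot values per clone measure labelling, hybridisation and printing, not the spread between animals, and no test was made. In bulk tissue, fewer cells of a type and less RNA per cell cannot be told apart. Over all 7680 clones the turned arrays correlated at r = 0.47 (rho = 0.41), with a median absolute difference of 0.19 and a 95th percentile of 0.54. The array with Fob3b in red was the wider, with an SD over clones of 0.30 against 0.22, and 40.2% of its variance lay between printing blocks against 6.61% on the other array. The spots of a clone correlated at 0.79 and 0.83. Of the clones, 4855 were annotated with 1 gene, 274 with several and 2551 with none, which gave 4075 genes.

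A clone was counted when its mean passed 1.5-fold, 0.585 on the log2 scale, with the same sign on both arrays. On the positive side 48 clones did so (0.625% of all clones), and on the negative side 121 did (1.58%). With each printing block centred the counts were 56 and 57, and with no centring, which shifts every clone by -0.37, they were 7 and 1276, so sides are given relative to the median clone. On the array with Fob3b in red alone there were 59 and 420, and on the other alone 69 and 74. Of the positive clones 38 carried 1 gene, and 7 (14.6%) had no gene annotation. Of the negative clones only 35 carried 1 gene, and 83 (68.6%) had none, against 33.2% of all clones. All 48 positive clones, and 120 of the 121 negative ones, had the same sign at each of their 4 spots. Just inside the threshold the means were 0.586 and -0.585, and just outside 0.583 and -0.583. Past 2-fold there were 6 positive and 2 negative clones.

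**Figure D1:**
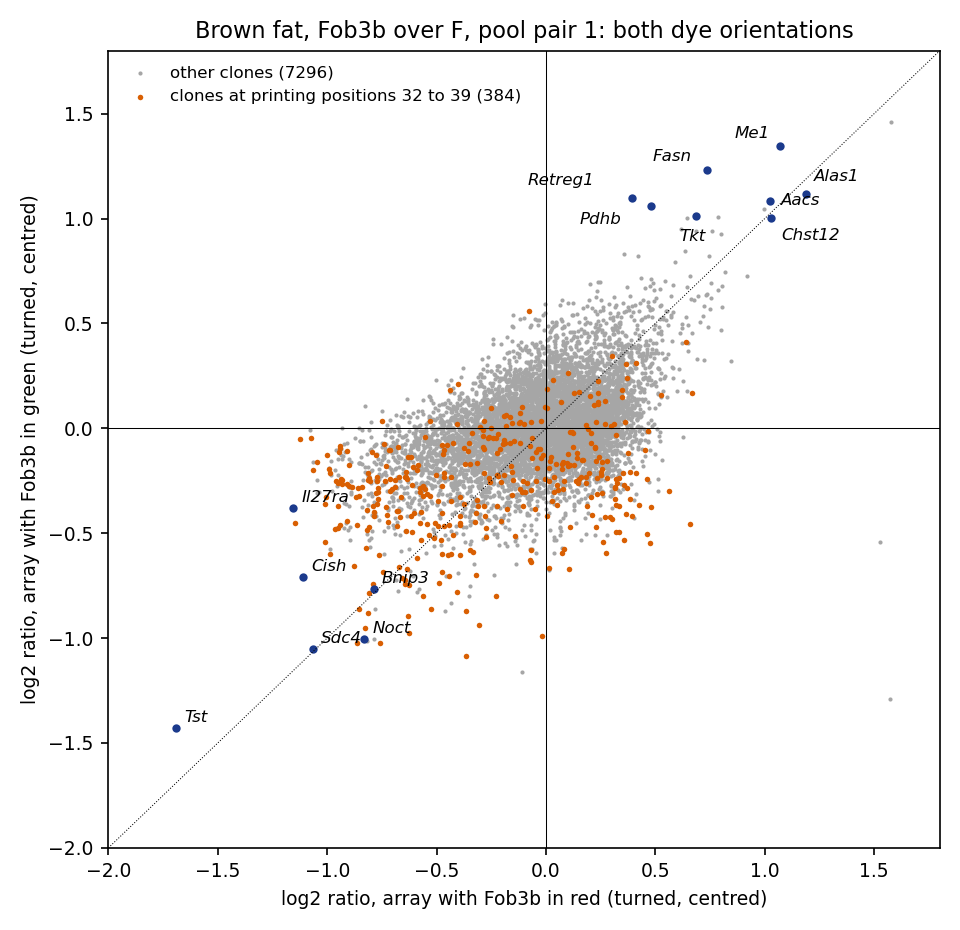
Log2 ratio of each of the 7680 clones on the array with Fob3b in red (horizontal axis) and on the array with Fob3b in green (vertical axis). Both are centred and turned, to Fob3b over F if red was divided by green. Points on the dotted diagonal gave the same value on both. Tst at the lower left and Me1, Alas1, Aacs, Chst12 and Fasn at the upper right stand clear of the cloud, and the 384 clones printed at positions 32 to 39 of a block (orange) lie mostly on the negative side.

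Genes of fatty acid synthesis and of its NADPH supply were among those farthest out on the positive side. Me1, cytosolic malic enzyme, had the highest annotated clone, and Fasn, fatty acid synthase, Aacs, the acetoacetyl-CoA synthetase that turns ketone bodies into lipid precursors, and Msmo1, a sterol methyl oxidase of cholesterol synthesis, were among the next 6 genes. Their promoters are shown because these genes lay on the same side together. Msmo1 was past 1.5-fold on clone 23191 alone, and its gene mean, 0.41, was inside the threshold. The sequences are the 250 bases before the RefSeq start in GRCm38.p6, 5′ to 3′ on the gene's strand, with CCAAT boxes on either strand in capitals. They lie at chr9:86695915-86696164 (minus strand) for Me1, chr11:120824548-120824797 (minus strand) for Fasn, chr5:125475623-125475872 (plus strand) for Aacs and chr8:64733579-64733828 (minus strand) for Msmo1.
Me1: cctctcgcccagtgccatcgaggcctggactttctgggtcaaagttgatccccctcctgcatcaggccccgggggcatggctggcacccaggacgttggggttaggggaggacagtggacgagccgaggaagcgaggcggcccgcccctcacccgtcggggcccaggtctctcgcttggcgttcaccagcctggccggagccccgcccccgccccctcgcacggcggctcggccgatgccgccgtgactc
Fasn: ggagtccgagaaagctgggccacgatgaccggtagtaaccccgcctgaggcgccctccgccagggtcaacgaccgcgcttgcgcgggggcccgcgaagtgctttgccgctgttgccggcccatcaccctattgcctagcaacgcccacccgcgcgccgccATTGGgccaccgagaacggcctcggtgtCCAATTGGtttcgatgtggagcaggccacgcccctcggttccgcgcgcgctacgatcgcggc
Aacs: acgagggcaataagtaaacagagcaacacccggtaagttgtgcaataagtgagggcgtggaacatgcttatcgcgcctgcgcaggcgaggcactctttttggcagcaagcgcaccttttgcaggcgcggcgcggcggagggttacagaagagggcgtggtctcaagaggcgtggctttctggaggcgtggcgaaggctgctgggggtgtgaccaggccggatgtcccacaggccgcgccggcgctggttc
Msmo1: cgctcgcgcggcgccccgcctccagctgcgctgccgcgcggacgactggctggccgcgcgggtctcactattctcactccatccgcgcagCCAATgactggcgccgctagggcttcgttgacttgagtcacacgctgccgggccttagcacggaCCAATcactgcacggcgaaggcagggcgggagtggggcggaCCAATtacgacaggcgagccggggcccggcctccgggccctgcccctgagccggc
The letters CCAAT or their complement ATTGG began 90, 62 and 59 bases before the start in Fasn, where the last 2 overlap in 1 run, and 160, 96 and 55 bases before it in Msmo1. They were not in the windows of Aacs or of this start of Me1. Over Me1, Fasn, Aacs, Msmo1, Tkt and Idh1, which have 8 RefSeq starts, 4 starts held the box, against 33.8% of 32851 promoters of the same length. None of the 8 held TCACNCCAC, a sterol regulatory element (1.05% of promoters), or CACGTG, an E-box (6.02%), on either strand.

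Me1 clone 31450 had 1.04 and 1.10 at its spots with Fob3b in red and 1.37 and 1.32 with Fob3b in green. The mean of its arrays, 1.07 and 1.35, was 1.21, a 2.31-fold difference. The other Me1 clone, 19851, had 0.66, 0.64, 1.04 and 0.97 in the same order, a mean of 0.82. All 8 spots of the gene were thus on the positive side, and on both clones the array with Fob3b in green gave the higher values. Aacs had 1.02, 1.03, 1.05 and 1.12, a mean of 1.05 or 2.08-fold, with its arrays at 1.03 and 1.08. Fasn had 0.69 and 0.78 with Fob3b in red and 1.22 and 1.25 with Fob3b in green, a mean of 0.98 or 1.98-fold. Its arrays did not overlap, but the lower of them was still past 1.5-fold. Msmo1 was measured by clones that disagreed. Clone 23191 had 0.82, 0.78, 0.91 and 0.94, a mean of 0.86, whereas clone 17442 had 0.01, 0.16, -0.14 and -0.24, a mean of -0.05. Which of these clones reports the gene was not tested.

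Transketolase and cytosolic isocitrate dehydrogenase accompanied Me1. Tkt, the transketolase of the pentose phosphate pathway, had 4 clones, with means of 0.85, 0.85, 0.78 and 0.35. The lowest of them had -0.08 and 0.28 with Fob3b in red and 0.61 and 0.59 with Fob3b in green, and the other 3 were positive at each spot. Idh1 had 0.43, 0.41, 0.89 and 0.76, a mean of 0.62, and was past 1.5-fold on the array with Fob3b in green alone. Taldo1, transaldolase, lay inside the threshold with 0.46, 0.42, 0.49 and 0.44. Of 7 measured genes of NADPH supply 6 were positive on both arrays and none was negative on both, at a median of 0.45. Over all 4075 genes 1550 (38.0%) were positive on both arrays and 1039 (25.5%) negative on both, at a median of 0.03, and 32 (0.785%) were past 1.5-fold on the positive side and 27 (0.663%) on the negative. Fatty acid and triglyceride synthesis was represented by 12 genes, of which 8 were positive on both arrays, 2 were negative on both, and 3, Aacs, Me1 and Fasn, were past 1.5-fold. The median of that list was 0.30. Acsl3, which activates long-chain fatty acids, had 0.20 on the array with Fob3b in red and 0.69 on the other. At the low end stood Dgat2, which makes the last step of triglyceride synthesis, with -0.25 and -0.22.

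The steps by which glucose carbon reaches the citrate cycle lay on the same side at smaller size. Slc2a4, the insulin-responsive glucose transporter GLUT4, had 0.79, 0.70, 0.61 and 0.53, a mean of 0.66 or 1.58-fold. Pkm, pyruvate kinase, had a mean of 0.45, Hk1, hexokinase 1, 0.43 and Tpi1, triosephosphate isomerase, 0.36, with all their spots positive. Of 8 genes of glycolysis and glucose uptake 7 were positive on both arrays and 1 negative on both, at a median of 0.34. For the pyruvate dehydrogenase complex, which commits pyruvate to acetyl-CoA, Pdhb of the E1 component had 0.47 and 0.49 with Fob3b in red and 1.06 and 1.06 with Fob3b in green. Its mean of 0.77 was 1.71-fold, and the array with Fob3b in red alone was inside the threshold. Dlat, the E2 component, had means of 0.52 and 0.51 on its 2 clones, and Dld, the E3 component, had 0.53, 0.44, 0.59 and 0.55. Each of these components was positive at every spot. Of 14 genes of pyruvate dehydrogenase and the citrate cycle 12 were positive on both arrays and 1 was negative on both, at a median of 0.22, but only Pdhb was past 1.5-fold.

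Genes of mitochondrial oxidation lay closer to the middle. Of 15 genes of fatty acid oxidation 11 were positive on both arrays and 0 negative on both, at a median of 0.20, and 0 were past 1.5-fold. Acad9, an acyl-CoA dehydrogenase, had the highest mean at 0.42, followed by Hadha of the trifunctional protein at 0.39. The array with Fob3b in green gave most of that list's height, with a median of 0.33 against 0.11 on the other. Of 38 genes of the respiratory chain and ATP synthase 26 were positive on both arrays and 4 negative on both, at a median of 0.14 with 0 past 1.5-fold. That median was 0.062 on the array with Fob3b in red and 0.19 on the other. Uqcrc2, a core subunit of complex III, stood highest with clones at 0.48 and 0.47, and Ndufs1 of complex I had 0.39. Proteasome subunits gave a like picture, with 13 of 16 positive on both arrays, a median of 0.17 and Psmd8 highest, its clones at 0.50 and 0.53. Cytosolic ribosomal proteins, 58 genes with 18 positive on both arrays and 9 negative on both, had a median of 0.03. It was -0.025 on the array with Fob3b in red and 0.0998 on the other, where all genes had 0.023 and 0.037.

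**Figure D2:**
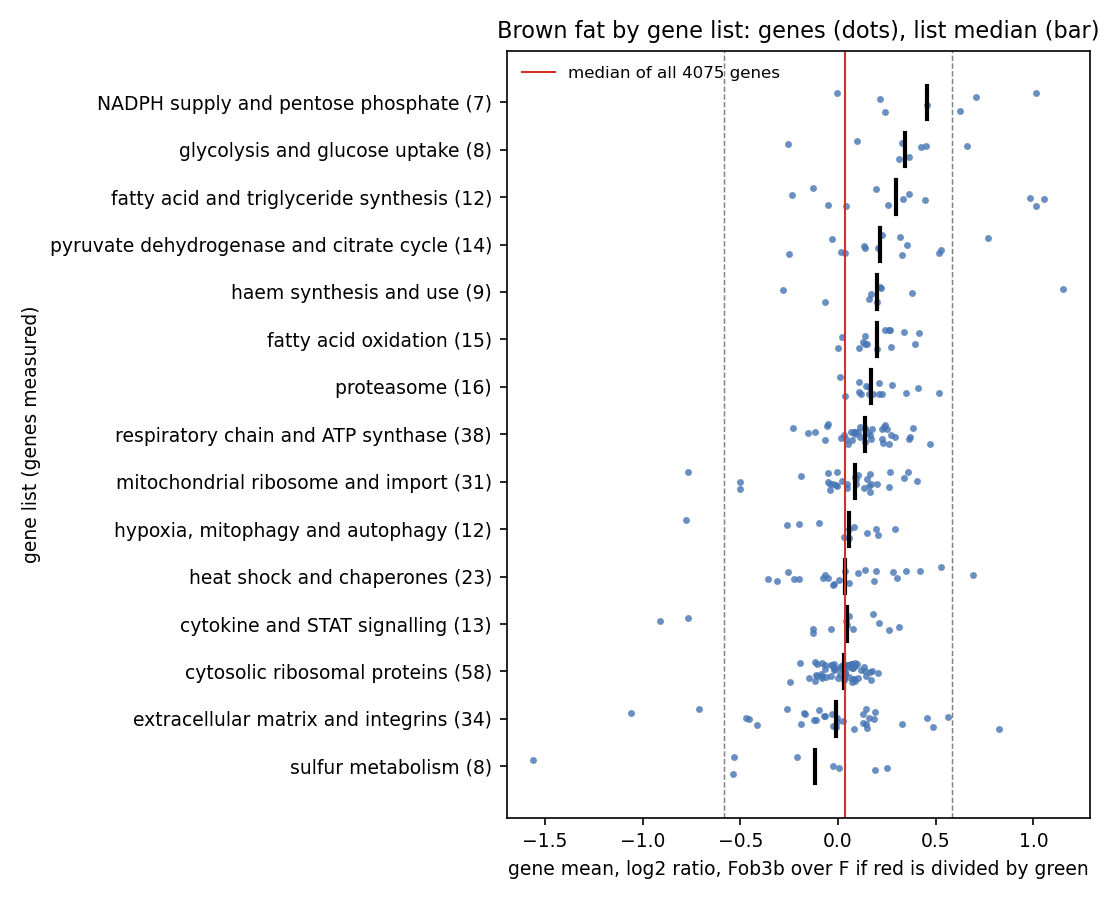
Gene means in brown adipose tissue by gene list (log2 ratio on the horizontal axis, 1 dot per gene, black bar the list's median, red line the median of all 4075 genes, dashed lines 1.5-fold). Among the lists drawn, the medians of NADPH supply (0.45), glycolysis and glucose uptake (0.34) and fatty acid synthesis (0.30) lie farthest to the right. That of ribosomal proteins (0.03) lies on the line of all genes, and that of sulfur metabolism (-0.12) farthest to the left. Lists not drawn include skeletal muscle markers (3 genes, median 0.69) and cholesterol synthesis (1 gene, 0.41).

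Alas1, the first and rate-limiting enzyme of haem synthesis in tissues other than red cells, had the highest gene mean of all 4075 genes and stood after Me1 alone when annotated genes were ranked by their highest clone. Its spots had 1.11, 1.27, 1.12 and 1.11, a mean of 1.15 or 2.22-fold, and the arrays overlapped. Its erythroid counterpart Alas2 had 0.07, -0.28, -0.47 and -0.45, a mean of -0.28. The remaining steps did not stand with Alas1. Of 9 genes of haem synthesis and use 7 were positive on both arrays, but the next was Hebp1, a haem-binding protein, at 0.38, and the median was 0.20.

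Several genes of signalling and of the secretory pathway were past 1.5-fold on the positive side as well. Chst12, a chondroitin sulfotransferase of the Golgi, had 1.11, 0.95, 0.93 and 1.08, a mean of 1.02, and Nudt4, a hydrolase of inositol pyrophosphates, had 0.83, 0.75, 1.08 and 0.93, a mean of 0.90. Both genes were past 1.5-fold on either array. Tgfbr2, the type II receptor for TGF-beta, had 0.91, 0.92, 0.75 and 0.70, a mean of 0.82. Serpinh1, the collagen chaperone of the endoplasmic reticulum, had a mean of 0.78 although its spots with Fob3b in red were 0.50 and 0.99. Ccdc3, a secreted protein, had 0.81, Mknk2, a kinase of the translation factor eIF4E, 0.78 and Anxa2, a membrane-binding annexin, 0.74, with every spot positive. Hsp90aa1, the inducible cytosolic HSP90, had 0.58, 0.60, 0.69 and 0.90, a mean of 0.69. It was the only one of 23 measured genes of heat shock and chaperones past 1.5-fold, and their median was 0.04 with 10 positive and 5 negative on both arrays.

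**Figure D3:**
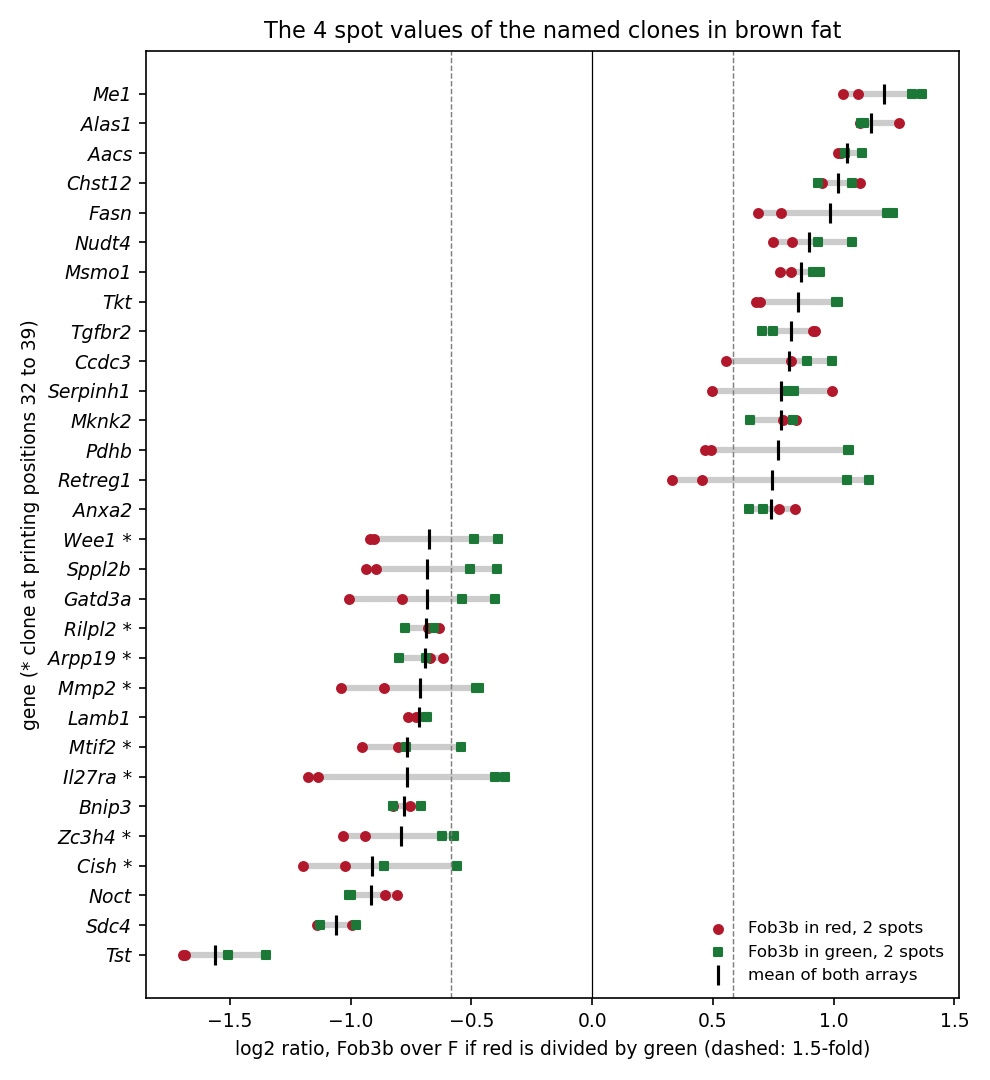
The 4 spot values of the leading clone of the 15 genes farthest out on each side (log2 ratio on the horizontal axis; red circles, spots of the array with Fob3b in red; green squares, spots of the array with Fob3b in green; black tick, mean of both arrays; dashed lines, 1.5-fold). Spots of Sdc4 and Bnip3 overlap between the arrays, whereas those of Il27ra, Mmp2, Pdhb and Retreg1 separate by array.

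On the negative side Tst stood alone. Tst encodes thiosulfate sulfurtransferase (rhodanese), a mitochondrial enzyme that transfers sulfur in the disposal of sulfide and cyanide, and it lies on chromosome 15. Its spots had -1.69 and -1.69 with Fob3b in red and -1.35 and -1.51 with Fob3b in green. The mean of -1.56, a 2.95-fold difference, was the largest of any clone with 1 gene, and its arrays, at -1.69 and -1.43, were both past 2-fold. Other genes of sulfur metabolism were lower in size and less even. Cth, the cystathionine gamma-lyase that releases sulfide from cysteine, had -0.83 and -0.96 against -0.22 and -0.34 on clone 32843, and -0.82 and -0.75 against -0.08 and -0.24 on clone 22802. Both clones were negative at each spot, and on both the array with Fob3b in red gave the larger size. The mean of clone 32843, -0.59, was just past 1.5-fold, and the mean of the gene over its clones, -0.53, was inside it. Got2, a mitochondrial aminotransferase whose clone was printed at position 33, had a mean of -0.54, and Txn1, thioredoxin, stood on the other side at 0.25. Of 8 measured genes of the list 4 were negative and 2 positive on both arrays, the median was -0.12, and by gene mean Tst alone was past 1.5-fold.

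Sdc4, a heparan sulfate proteoglycan of the cell surface, came next with -0.99, -1.14, -0.98 and -1.13, a mean of -1.06 or 2.08-fold. Noct, a rhythmically expressed phosphatase of NADP(H), had -0.81, -0.86, -1.0 and -1.01 on clone 17439 and -0.75, -0.82, -0.95 and -1.06 on clone 18845. The means of -0.92 and -0.90 on separate clones differed by less than their arrays did. Among other clock genes, Per3, a period gene, lay opposite with 0.46, 0.58, 0.58 and 0.75, a mean of 0.59, and Ciart, a repressor of the clock, had -0.18. Arntl, which encodes BMAL1, had 0.43 on the array with Fob3b in red and -0.05 on the other, so its arrays disagreed in sign. Of 7 clock genes 1 was positive and 3 were negative on both arrays. The time of day at which tissue was taken is not stated in the sources used here. Bnip3, a hypoxia-induced receptor for the removal of mitochondria, had -0.82, -0.75, -0.71 and -0.82, a mean of -0.78 or 1.71-fold. Its relative Bnip3l had means of -0.19 and -0.34 on 2 clones, with arrays that disagreed on the first of them.

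Genes of the extracellular matrix stood on both sides. Of 34 measured, 10 were positive and 10 negative on both arrays, at a median of -0.01. Over all genes 38.0% were positive and 25.5% negative on both arrays. Beside Sdc4, the negative side held Mmp2, a gelatinase, with -1.04 and -0.86 against -0.47 and -0.48. Lamb1, a laminin chain, had -0.73, -0.76, -0.69 and -0.68 on clone 24890 and a mean of -0.23 on its other clone. The positive side held Tgfbr2 past 1.5-fold and Sparc, a collagen-binding matrix protein, with 0.66, 0.67, 0.49 and 0.42, a mean of 0.56.

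Where a clone had been printed went with the negative side. The 8 printing positions 32 to 39 of each block hold 384 clones, 5% of all, and 59 (48.8%) of the 121 negative clones lay there, among them 14 of the 35 with 1 gene. None of the 48 positive clones did. At these positions 15.4% of clones were negative past 1.5-fold, against 0.850% elsewhere, and the median was -0.24 against 0.01. The median of each of these 8 positions, -0.36 to -0.17, was below that of every 1 of the other 152, -0.12 to 0.21. Clones without a gene were more frequent there, 50.5% against 32.3%, and lower, at a median of -0.40 against -0.13 for the 187 with 1 gene. The 384 control spots at positions 8 to 11 and at the matching places near a block's end, whose content the files do not name, gave turned medians of -0.59 with Fob3b in red and -0.39 with Fob3b in green, beside -0.25 and -0.26 for the clones at positions 32 to 39. The part of printing position in these values was not tested. Tst, Sdc4, Noct, Bnip3, Lamb1, Gatd3a and Sppl2b among the 15 leading negative genes were printed elsewhere.

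The other 8 of those 15 came from these positions. Cish, an inhibitor of cytokine signalling through STAT5, had -1.02 and -1.20 against -0.56 and -0.86, a mean of -0.91. Il27ra, a cytokine receptor subunit, had -1.13 and -1.18 against -0.36 and -0.40, a mean of -0.77. These were the only 2 of 13 measured genes of cytokine and STAT signalling past 1.5-fold, and the median of that list was 0.04. Zc3h4, a zinc finger protein, had a mean of -0.79, and Mtif2, the mitochondrial translation initiation factor, had -0.77. Rilpl2 had -0.69, Wee1, the kinase that holds back mitosis, -0.68 and Mmp2 -0.71. Arpp19, a regulator of the phosphatase PP2A, had -0.69 on clone 19838 at position 37 and -0.14 on clone 33522 at position 41. With each printing position centred on its own median, Il27ra came to -0.46, Mmp2 to -0.45, Mtif2 to -0.46, Wee1 to -0.44, Arpp19 to -0.43 and Rilpl2 to -0.54, all inside the threshold, and Cish and Zc3h4 stayed past it. The call of Gatd3a, in block 48, ended with each block centred, at -0.39, and those of Wee1 (-0.38), Arpp19 (-0.55) and Mtif2 (-0.57) ended there too. So did that of Anxa2 on the positive side, at 0.58.

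**Figure D4:**
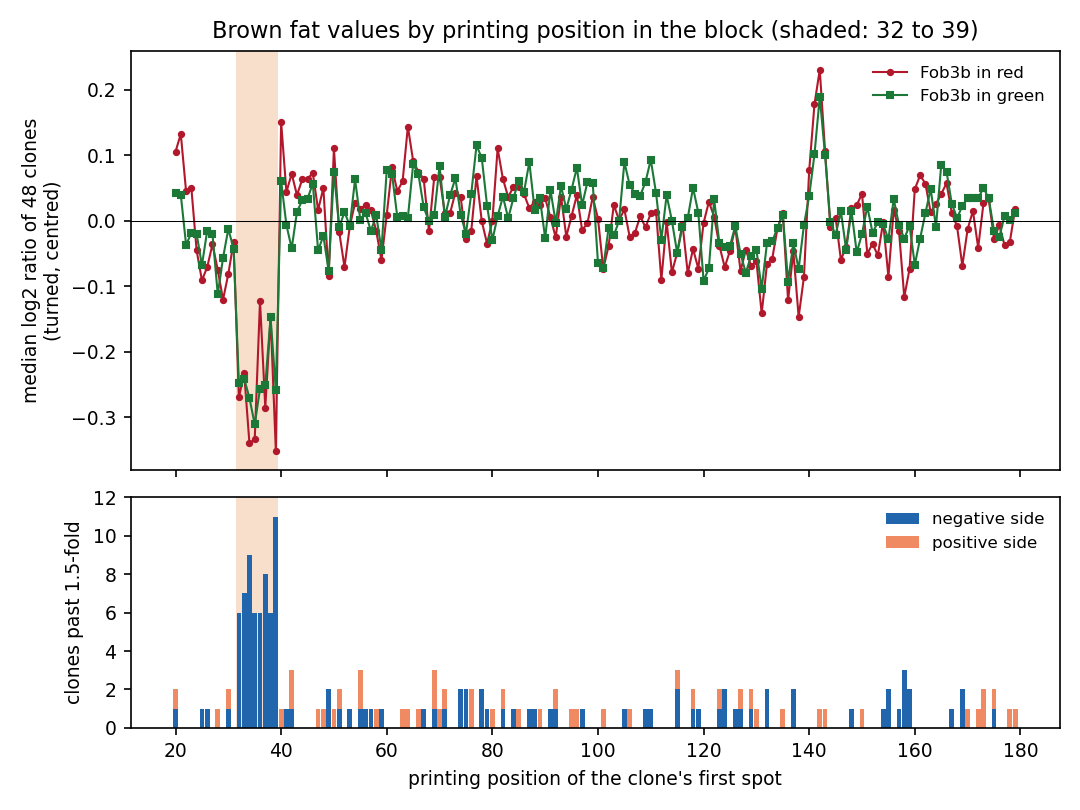
Upper panel: median log2 ratio of the 48 clones at each printing position (horizontal axis, position of the clone's first spot in its block), for the array with Fob3b in red (circles) and with Fob3b in green (squares), turned and centred. Lower panel: number of clones past 1.5-fold at each position; the shaded positions 32 to 39 hold 59 of the 121 on the negative side and 0 of the 48 on the positive.

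Markers gave a mixed account of the tissue and its other cells. Ucp1 was not among the genes analysed here. Of the thermogenic genes measured, Prdm16, a regulator of brown fat identity, had means of -0.31 and 0.02 on the arrays, Elovl3, a fatty acid elongase of brown fat, -0.11 and 0.01, Fabp3, a fatty acid carrier, -0.05 and -0.16 over its clones, and Acaa2, a thiolase of fatty acid oxidation, 0.04 and 0.44. All 4 lay inside 1.5-fold. A ratio cannot show that a marker is present, so the tissue label could not be checked from these values. Skeletal muscle, which adjoins the depot, was represented by 3 genes. Tpm2, a tropomyosin, had 0.62, 0.65, 0.84 and 0.86, a mean of 0.74, Mylpf, the fast myosin light chain, had 0.63, 0.68, 0.70 and 0.76, a mean of 0.69, and Tnnt1, the slow troponin T, had 0.13, 0.08, -0.09 and -0.19, a mean of -0.02. Tpm2 and Mylpf thus stood past 1.5-fold, and muscle also expresses Slc2a4 and Pkm. With the same pools on the first design Pkm had 0.59 and Tpm2 -0.89, and Slc2a4 had no value there. The part of muscle in the positive side was not tested. Macrophage genes C1qa and C1qb had -0.05 and -0.02, and Ctsd, a lysosomal protease of many cells, had 0.50, 0.45 and 0.43 on its 3 clones. The endothelial gene Cd34 had 0.02. Red-cell genes were Alas2 at -0.28, Hbb-b1 at 0.04 and -0.01 on its clones, and Slc4a1 at 0.16. Hepatocyte, lymphocyte and nerve markers were not among the genes analysed here.

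Chromosome 15 carries the locus. Its 160 measured genes had a median of 0.02 against 0.03 for all genes, with 55 positive and 40 negative on both arrays. Over all genes 38.0% were positive and 25.5% negative on both arrays. Past 1.5-fold there was 1 gene on each side, Tst at -1.56 and Retreg1, a receptor for the turnover of the endoplasmic reticulum, at 0.61 over its clones. Over all genes 0.785% were past it on the positive side and 0.663% on the negative. Where these genes lie relative to the locus was not examined. Retreg1 clone 18894 had 0.33 and 0.45 with Fob3b in red and 1.05 and 1.15 with Fob3b in green, and clone 32562 had 0.55, 0.47, 0.45 and 0.46. All 8 spots were positive, and the height of the first clone came from 1 array. Tst was thus the gene of this chromosome farthest from the middle, with the next on its side, Amhr2, a hormone receptor gene named after its value was seen, at -0.48.

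The same RNA pools had been hybridised on the first array design, which carries other clones and shares 943 genes. Both designs thus share the RNA of both lines, and their comparison shows how far the measurement repeats, not a second set of animals. Over the shared genes r was 0.21 (rho 0.19), and 57.7% had the same sign. Past 1.5-fold were 13 of them on the second design (1.38%) and 49 on the first (5.20%), with 6 in common, 46.2% of the former and 12.2% of the latter. Me1 had 1.02 on the second design and 1.23 on the first, Fasn 0.98 and 1.0, Tkt 0.71 and 0.73, Idh1 0.62 and 0.68, and Cyb5b, a cytochrome b5 of the outer mitochondrial membrane, 0.65 and 0.59. These 5 were selected for being past 1.5-fold on both designs, so their likeness in size is a description. Others of the 13 differed more: Hsp90aa1 had 0.69 and 0.46, and, named after their values were seen, Kank2 had 0.63 and 0.011 and Paf1 -0.67 and 0.34. Tpm2 was past 1.5-fold on opposite sides, with 0.74 on the second design against -0.89 on the first, and both arrays of each design held to their side. The muscle list as a whole had a median of 0.69 on the second design and -0.57 on the first, with 3 genes measured on each. Pool pair 2 was hybridised on the first design alone, where Me1 had 0.29, Fasn 0.22, Tkt 0.57, Idh1 0.30, Cyb5b 0.23 and Tpm2 -0.26. These means lay inside 1.5-fold, and in that pool pair the dye orientations disagreed in sign for all but Cyb5b. With Fob3b in red and in green, Me1 had 0.66 and -0.085, Fasn 0.82 and -0.38, Tkt 1.55 and -0.41, and Idh1 0.72 and -0.12. Cyb5b had 0.10 and 0.36, and Tpm2 -0.72 and 0.20. Of the 5 negative genes shared by the designs, 4 were negative on the first as well, at a median of -0.21 for the 5, and Mtif2 had -0.18. In pool pair 2 on the first design only 1 of these 5 was negative, at a median of 0.075, and of the 8 positive shared genes 7 were positive in either pool pair. Over all 943 shared genes, 54.0% had the same sign in that pool pair as on the second design, at r = 0.15. Tst, Sdc4, Noct and Bnip3 were not among the shared genes.

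By list, the same pools on the first design had medians of 0.68 for NADPH supply, 0.40 for glycolysis and glucose uptake, 0.37 for fatty acid synthesis, 0.22 for pyruvate dehydrogenase and the citrate cycle and 0.17 for fatty acid oxidation, against 0.03 for all genes. These lists hold other sets of measured genes on each design, so the values stand side by side. Ribosomal proteins had -0.15 there against 0.03 on the second design, and sulfur metabolism had 0.01 against -0.12.

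Liver RNA of the same lines had been hybridised on the second design in 2 pool pairs, on the same clones. Whether a liver pool and a brown fat pool came from the same animals is not stated in the sources used here. The lipid synthesis genes gave unequal values there. Fasn had 0.98 in brown fat, and 0.57 and 0.69 in liver pool pairs 1 and 2, and so stood on 1 side throughout. Msmo1 clone 23191 had 0.86, 0.40 and 1.16 in the same order, and its other clone -0.05, 0.06 and 0.37. Me1 had 0.00 and 0.17 in liver on the clone with 1.21 in brown fat, and Aacs 0.34 and 0.15 beside 1.05. Tkt clone 30296 had 0.16 and 0.15 beside 0.85, and Pdhb -0.10 and 0.02 beside 0.77. Alas1 lay on opposite sides, with 1.15 in brown fat and -0.40 and -0.67 in liver. Tst did too, with -1.56 in brown fat and 0.31 and 0.17 in liver. Sdc4 had 0.23 and -0.05 in liver beside -1.06. No test of these differences between tissues was made, since brown fat had 1 pool pair.

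**Figure D5:**
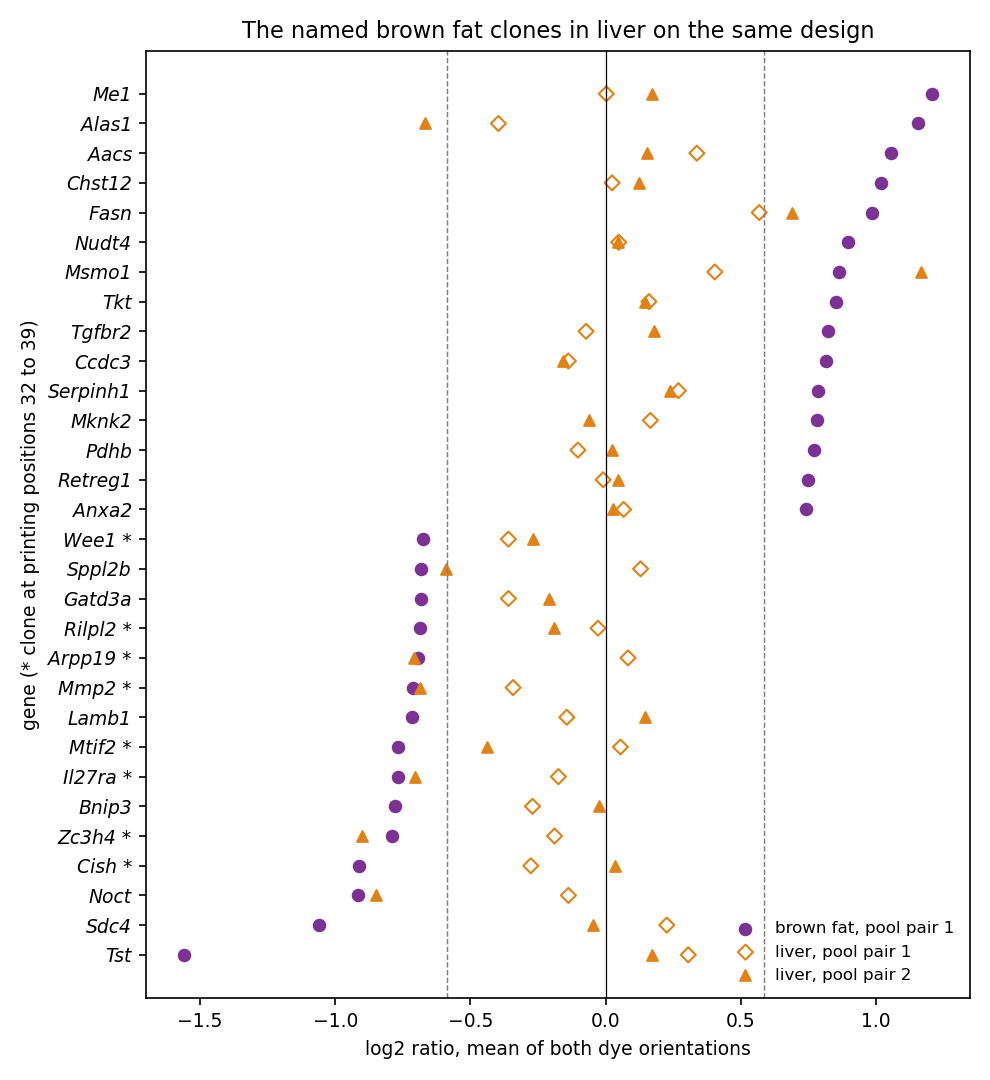
Mean log2 ratio of both dye orientations for the leading clone of the 15 genes farthest out on each side in brown adipose tissue (filled circles), with the same clone in liver pool pair 1 (open diamonds) and liver pool pair 2 (triangles); dashed lines, 1.5-fold. Most of the positive genes lie near 0 in liver, except Fasn and Msmo1 on the same side and Alas1 on the other. Among the negative genes Noct, Zc3h4, Il27ra, Mmp2, Arpp19 and Sppl2b lie near their brown fat value in liver pool pair 2.

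The liver pool pairs stood at unequal distance from brown fat. Over the 7680 clones brown fat correlated with liver pool pair 1 at r = 0.12 and with liver pool pair 2 at 0.56, as a description across clones that share a design and its printing. The turned arrays correlated with each other at 0.08 in liver pool pair 1 and at 0.40 in liver pool pair 2. Liver pool pair 1 had 3 clones past 1.5-fold on the positive side (0.0391%) and 25 on the negative (0.326%), and liver pool pair 2 had 8 (0.104%) and 106 (1.38%). With liver pool pair 2, brown fat shared 46 clones past 1.5-fold, 27.2% of its own and 40.4% of those of liver, and 45 of them had the same sign. The 38 positive brown fat clones with 1 gene had a median of 0.04 in liver pool pair 1 and 0.13 in the other. The 35 negative ones had -0.14 and -0.41, and 30 of them were negative in pool pair 2. Over all 7680 clones, 70.4% had the same sign in brown fat and liver pool pair 2, and 52.5% in brown fat and liver pool pair 1. Clones without a gene followed liver pool pair 2 more closely, at r = 0.61 over 2551, than clones with 1 gene, at 0.50 over 4855. At positions 32 to 39 the liver medians were -0.06 and -0.29 beside -0.24 in brown fat, and the part of printing in this likeness was not tested. Noct, printed elsewhere, had -0.85 and -0.83 on its clones in liver pool pair 2, close to its brown fat values, and -0.14 and 0.09 in liver pool pair 1.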

How the data were processed

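Total RNA of 1 Fob3b pool and 1 F pool was compared on 2 arrays with the dyes exchanged. The deposited values are log2 ratios of the dyes per spot, taken as base 2 because the authors' base is not stated; background correction, normalization and the numerator are not stated in the sources used here, and no intensities were used. Deposited medians were -0.43 and 0.31. Each array had 17280 spots in 48 blocks of 360. All 5129 accessions found at 2 spots had them 160 rows apart, which was used to pair the spots of 7680 clones; 1920 control spots were left out, and 0 values were missing. Genes came from the platform annotation, with names from RefSeq GRCm38.p6. Arrays were centred, turned and averaged in Python 3.11.15 with pandas 2.3.3 and numpy 2.4.6, tested on simulated data. Clones of a gene were averaged for lists. No test was computed with 1 pool pair. Alternatives were no centring, centring by block or printing position, scaling, single spots, single arrays, other thresholds and genes as units; those on printing position were chosen after seeing the data. The members and lists were chosen with earlier results of these data known. Named genes were the first 15 per side by size with 4 spots of 1 sign and past 1.5-fold, up to 4 members of each list discussed, all thermogenic and discussed marker genes, and genes past 1.5-fold on both designs.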

Additional observations from a re-analysis of the deposited data

Results flagged for a closer look

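Alas1, the first enzyme of haem synthesis, and Tst, the mitochondrial sulfurtransferase of chromosome 15, lay on opposite sides in brown adipose tissue and liver on the same clones of the second design. Alas1 had a mean of 1.15 in brown fat, with 1.19 and 1.12 on its arrays, and was negative on each of the 4 liver arrays, from -0.80 to -0.20. Tst had a mean of -1.56 in brown fat, with -1.69 and -1.43, and was positive on each of the 4 liver arrays, from 0.08 to 0.34. With 1 brown fat pool pair the difference between the tissues was not tested for either gene.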

How the results depend on the processing

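The 48 positive and 121 negative clones came to 7 and 1276 without centring, which shifts every clone by -0.37, and to 6 and 2 at 2-fold. On the negative side the count was 57 with printing blocks centred (51 of them in common with the 121), 60 with printing positions centred (51 in common), 62 without positions 32 to 39 and 27 with genes as units. On single arrays it was 74 to 420, and 59 to 69 on the positive side. Of the 48 positive clones 39 were kept with blocks centred and 41 with positions centred. The array with Fob3b in red alone kept 38 of these 48 and 110 of the 121 negative clones, and the other alone kept 40 and 46. The correlation of the arrays was 0.60 with blocks centred, that with the first design 0.29 with blocks centred, and that with liver pool pair 2 0.50 with positions centred.

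The alternatives were run on the 37 named clones past 1.5-fold, and none of these changed sign. For most settings this followed from the choice of clones. Every spot of each clone had 1 sign, so single spots, single arrays and scaling could not turn it. The shift of -0.37 without centring was smaller than the threshold. Only centring by block or by printing position could have turned a sign. Without centring only 21 of the 37 stayed past 1.5-fold, and the smallest came to 0.26 in size. With blocks centred 32 stayed past it, and with positions centred 31. On the array with Fob3b in red alone 34 did (inside it were Idh1 at 0.42, Pdhb at 0.48 and Retreg1 at 0.39). On the other array alone 31 did (inside it were Cyb5b at 0.58, Gatd3a at -0.47, Il27ra at -0.38, Mmp2 at -0.48, Sppl2b at -0.45 and Wee1 at -0.44). List medians without centring, where all genes had -0.33, were -0.069 for fatty acid and triglyceride synthesis, 0.088 for NADPH supply and pentose phosphate, -0.021 for glycolysis and glucose uptake, -0.15 for pyruvate dehydrogenase and citrate cycle, -0.17 for fatty acid oxidation, -0.23 for respiratory chain and ATP synthase, -0.16 for haem synthesis and use, -0.48 for sulfur metabolism, -0.20 for proteasome, -0.33 for heat shock and chaperones, -0.33 for cytosolic ribosomal proteins, -0.28 for mitochondrial ribosome and import, -0.37 for extracellular matrix and integrins, -0.32 for cytokine and STAT signalling, -0.31 for hypoxia, mitophagy and autophagy, -0.29 for insulin and mTOR signalling, -0.30 for circadian clock, -0.27 for glutathione S-transferases and metallothioneins, -0.25 for general adipocyte, -0.31 for cell cycle. For the next settings, up to single arrays, only lists are given whose median moved by at least the SD of their 2 array medians. That SD was 0.0042 for sulfur metabolism and 0.15 for fatty acid oxidation, so the lists left out can have moved more in size. The main medians not given above were 0.12 for general adipocyte and 0.07 for circadian clock. With blocks centred the medians were 0.34 for NADPH supply and pentose phosphate, 0.27 for glycolysis and glucose uptake, 0.18 for haem synthesis and use, -0.058 for sulfur metabolism, 0.026 for extracellular matrix and integrins, 0.086 for cytokine and STAT signalling, 0.26 for general adipocyte. With positions centred they were 0.50 for NADPH supply and pentose phosphate, 0.30 for glycolysis and glucose uptake, -0.16 for sulfur metabolism, 0.073 for heat shock and chaperones, 0.034 for mitochondrial ribosome and import, 0.048 for cytokine and STAT signalling, -0.011 for circadian clock, 0.16 for glutathione S-transferases and metallothioneins, 0.11 for general adipocyte. With positions 32 to 39 left out they were -0.025 for sulfur metabolism, 0.055 for cytokine and STAT signalling. From the first spot only they were -0.13 for sulfur metabolism, -0.0082 for heat shock and chaperones, 0.050 for cytokine and STAT signalling, 0.021 for circadian clock, 0.084 for general adipocyte, and from the second only 0.42 for NADPH supply and pentose phosphate, 0.18 for haem synthesis and use, -0.17 for sulfur metabolism, 0.025 for cytokine and STAT signalling, 0.14 for general adipocyte. With the arrays scaled to 1 spread they were 0.057 for cytokine and STAT signalling, 0.087 for circadian clock. On single arrays they ran from 0.21 to 0.39 for fatty acid and triglyceride synthesis, 0.42 to 0.46 for NADPH supply and pentose phosphate, 0.34 to 0.39 for glycolysis and glucose uptake, 0.17 to 0.29 for pyruvate dehydrogenase and citrate cycle, 0.11 to 0.33 for fatty acid oxidation, 0.062 to 0.19 for respiratory chain and ATP synthase, 0.19 to 0.21 for haem synthesis and use, -0.16 to -0.15 for sulfur metabolism, 0.16 to 0.23 for proteasome, 0.076 to 0.12 for heat shock and chaperones, -0.025 to 0.10 for cytosolic ribosomal proteins, 0.055 to 0.12 for mitochondrial ribosome and import, -0.017 to 0.022 for extracellular matrix and integrins, 0.034 to 0.035 for cytokine and STAT signalling, -0.025 to 0.11 for hypoxia, mitophagy and autophagy, 0.042 to 0.11 for insulin and mTOR signalling, -0.055 to -0.028 for circadian clock, 0.033 to 0.099 for glutathione S-transferases and metallothioneins, 0.13 to 0.14 for general adipocyte, 0.027 to 0.087 for cell cycle. The causes were not tested. No paired analysis was possible because there was 1 pool pair and no test. Without intensities, signal over background could not be checked, and 1 pool pair limits the precision.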

Other observations

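Some of the farthest clones carry no gene name in the annotation used here. Clone 17711 had spots of 1.57, 1.59, 1.51 and 1.41, a mean of 1.52, above every annotated clone, and its neighbour on the slide, clone 17710, had a mean of 0.62. Clone 26039 had 1.02, and clone 28980 had 0.72. On the negative side clones 21274 and 21275, printed next to each other at positions 33 and 34 of block 12, had -0.94 and -0.89, clone 24156 at position 35 had -0.89, and clone 33559, at position 78, had -0.91.

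Of the 650 genes with several clones, 60.3% had all clones on 1 side, and the median range between clones of a gene was 0.14. Of the 14 such genes with a clone past 1.5-fold, 10 had all clones on 1 side. Among antioxidant genes, Gpx3, the secreted glutathione peroxidase, had -0.38. Gstm2, a glutathione S-transferase, had 0.34 on clone 21996, printed at position 35, and 0.23 on its other clone. Their list of 15 genes had a median of 0.09, with 8 positive and 2 negative on both arrays. In insulin and mTOR signalling, 9 genes with a median of 0.08, Prkab1, a subunit of AMPK, had 0.31, Mtor 0.27 and Sgk1, a kinase induced by corticosteroids, -0.22. In mitochondrial translation and import, 31 genes with a median of 0.09, Mrpl50 had 0.40, and Tomm70a and Mrpl11, both printed at positions 32 to 39, had -0.50 each. In the cell cycle list, 14 genes with a median of 0.05, Top2a, the topoisomerase of dividing cells, had 0.37 and Mcm6, a helicase subunit, 0.30. In the autophagy list, 12 genes with a median of 0.06, Pink1 had 0.29 opposite Bnip3.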
